A study of Homo sapiens with 3 samples.

Results

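The genes of cholesterol and fatty acid synthesis were followed across 3 lines of HT1080, an established human fibrosarcoma cell line, each hybridised to 1 Affymetrix expression array. The 33 genes were taken from a list of pathway members that was chosen with earlier results of these data known. A gene was included where a probe set's platform annotation named that gene alone. This held for 30 of them, out of 19775 genes measured on the arrays in all. CYP51A1, FADS1 and FDFT1 had no such probe set and are not described. The 30 genes had 64 probe sets, of which 11 genes had 1 and the other 19 had 2 to 4. The brightest probe set stands for each gene, and the others serve as a check.

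The first line, RECK/4NQ, was transfected with a vector for a RECK protein that has glutamine in place of 4 glycan-bearing asparagines. The second, RECK, carries the same vector with unaltered RECK, and the 3rd, Zeo, was mock-transfected. RECK is a membrane-anchored inhibitor of matrix metalloproteinases. All 3 lines were kept in medium that held 10% serum of fetal calf and, to select transfected cells, the drug Zeocin at 50 µg/mL. Whether each line is 1 clone or a pool of cells is not stated in the labels. Serum carries lipoproteins, a source of cholesterol for cells in culture.

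Each group is 1 array, so no difference below has a replicate check, a test or a p-value, and anything else that differs between the lines cannot be told apart from the transfected gene. The brightest RECK probe set had a signal of 442 in RECK/4NQ, 387 in RECK and 264 in Zeo, while the other 4 stayed below 27 on every array. The total signal lay between 11372200 and 12517000 per array. All 5 mesenchymal markers examined, VIM among them, were at or above the floor (a signal of 12.25, explained next) on every array. Of 4 epithelial markers 3 were below it on every array, and CDH1 was above it in RECK/4NQ alone, at 15.6. Of 3 blood cell markers, CD3E and CD79A were above it on every array.

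Values are MAS5 signals, a brightness on a linear scale that estimates the level of a transcript and cannot be set against the signal of another gene. Signals under the floor, the 40th percentile of all signals, were raised to it before a ratio was taken. A gene is called higher or lower in 1 line than in another where its signals differ at least 1.5-fold or, more strictly, 2-fold. As a scale, many ratios are given in spreads, where 1 spread is the robust standard deviation of the ratios among 1000 genes of closest level. A spread takes in real differences between the lines as well as noise, so it does not measure replicate error. The median log2 ratio of the 14282 genes whose mean level reached the floor was -0.12 for RECK/4NQ over Zeo, 0.06 for RECK/4NQ over RECK and -0.19 in the comparison of RECK with Zeo. Ratios are given as deposited, and group medians beside these values.

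Cholesterol is built from acetyl-CoA. The mevalonate pathway turns it into isoprenoid units and farnesyl diphosphate, squalene synthase and squalene epoxidase commit these to sterols, and a long series of steps in the endoplasmic reticulum trims and reduces the first sterol, lanosterol, to cholesterol. Transcription of nearly all of these genes is driven by SREBP-2, and that of fatty acid synthesis genes mostly by SREBP-1. Both factors are held in the endoplasmic reticulum by SCAP and the INSIG proteins while sterols are plentiful, and are carried to the Golgi and cut free when sterols run low.

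Promoter sequences are shown for 5 members whose signals are described below: INSIG1 and STARD4, lower than Zeo in both RECK/4NQ and RECK; SC5D, lower in RECK/4NQ; EBP, lower in RECK; and ACACA, higher in RECK/4NQ. Each runs from 250 bases before the gene's start to 50 bases after it, 5′ to 3′ on the gene's own strand, from RefSeq on GRCh38.p14. Capitals mark 3 motifs, searched on both strands: CACNCCAC, a core of the sites that SREBPs are known to bind, CACGTG, the E-box that SREBP-1 and other factors bind, and CCAAT, the site of NF-Y, a known partner of SREBPs. On the other strand, CACNCCAC can read GTGGCGTG and CCAAT reads ATTGG. INSIG1 lies at chr7:155297628-155297927 on the plus strand, STARD4 at chr5:111512486-111512785 on the minus strand, SC5D at chr11:121292521-121292820 on the plus strand, EBP at chrX:48521558-48521857 on the plus strand and ACACA at chr17:37406787-37407086 on the minus strand. SC5D has 2 listed starts and ACACA 3, of which the first listed is shown.
INSIG1: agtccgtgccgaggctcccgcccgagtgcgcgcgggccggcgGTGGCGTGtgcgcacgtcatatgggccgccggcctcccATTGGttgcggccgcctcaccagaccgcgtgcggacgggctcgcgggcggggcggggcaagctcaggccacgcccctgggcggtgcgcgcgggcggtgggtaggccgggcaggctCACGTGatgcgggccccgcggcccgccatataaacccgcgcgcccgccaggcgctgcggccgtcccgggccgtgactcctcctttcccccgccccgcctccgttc
STARD4: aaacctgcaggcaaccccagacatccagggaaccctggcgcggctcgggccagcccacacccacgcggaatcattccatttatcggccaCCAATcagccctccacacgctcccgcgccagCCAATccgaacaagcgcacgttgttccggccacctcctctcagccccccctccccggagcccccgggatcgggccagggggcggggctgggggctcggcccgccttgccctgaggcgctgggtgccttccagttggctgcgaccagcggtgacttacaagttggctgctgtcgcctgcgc
SC5D: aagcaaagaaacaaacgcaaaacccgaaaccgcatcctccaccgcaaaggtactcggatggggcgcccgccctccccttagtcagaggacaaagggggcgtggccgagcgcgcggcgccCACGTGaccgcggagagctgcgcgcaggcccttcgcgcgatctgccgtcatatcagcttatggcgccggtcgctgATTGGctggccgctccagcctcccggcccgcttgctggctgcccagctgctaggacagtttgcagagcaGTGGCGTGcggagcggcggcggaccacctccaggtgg
EBP: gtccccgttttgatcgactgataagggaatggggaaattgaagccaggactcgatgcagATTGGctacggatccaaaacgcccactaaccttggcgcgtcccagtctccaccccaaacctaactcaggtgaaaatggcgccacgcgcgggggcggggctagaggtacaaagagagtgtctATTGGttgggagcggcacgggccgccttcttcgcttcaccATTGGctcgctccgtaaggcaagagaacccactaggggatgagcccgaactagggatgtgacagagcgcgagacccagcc
ACACA: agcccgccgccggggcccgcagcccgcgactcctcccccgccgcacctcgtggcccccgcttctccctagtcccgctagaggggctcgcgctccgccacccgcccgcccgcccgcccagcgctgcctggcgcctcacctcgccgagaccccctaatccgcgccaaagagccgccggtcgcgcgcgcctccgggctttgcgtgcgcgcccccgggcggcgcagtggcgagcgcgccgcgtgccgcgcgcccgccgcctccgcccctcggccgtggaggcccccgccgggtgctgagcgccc

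INSIG1 and SC5D each held all 3 motifs. In INSIG1 the SREBP-type match began 208 bases before the start, the CCAAT box 170 and the E-box 55 bases before it. SC5D had its E-box 131 bases and its CCAAT box 56 bases before the start, and its SREBP-type match 13 bases after it. STARD4 held 2 CCAAT boxes and EBP 3, with no other match, and the ACACA window held none. Promoters were listed for 29 of the 33 members. Taking the first listed start of each gene, 18 of these 29 (62.1%) held CCAAT, against 35.7% of 27305 genes with a promoter. The SREBP-type motif was found in 4 of 29 (13.8%: SC5D, INSIG1, SREBF2 and SCD) against 5.74% of all, and the E-box in 4 of 29 (13.8%: LSS, SC5D, INSIG1 and SCAP) against 7.43%. A match is a run of letters in this window and says nothing of whether a factor was bound there in these cells.

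**Figure D1:**
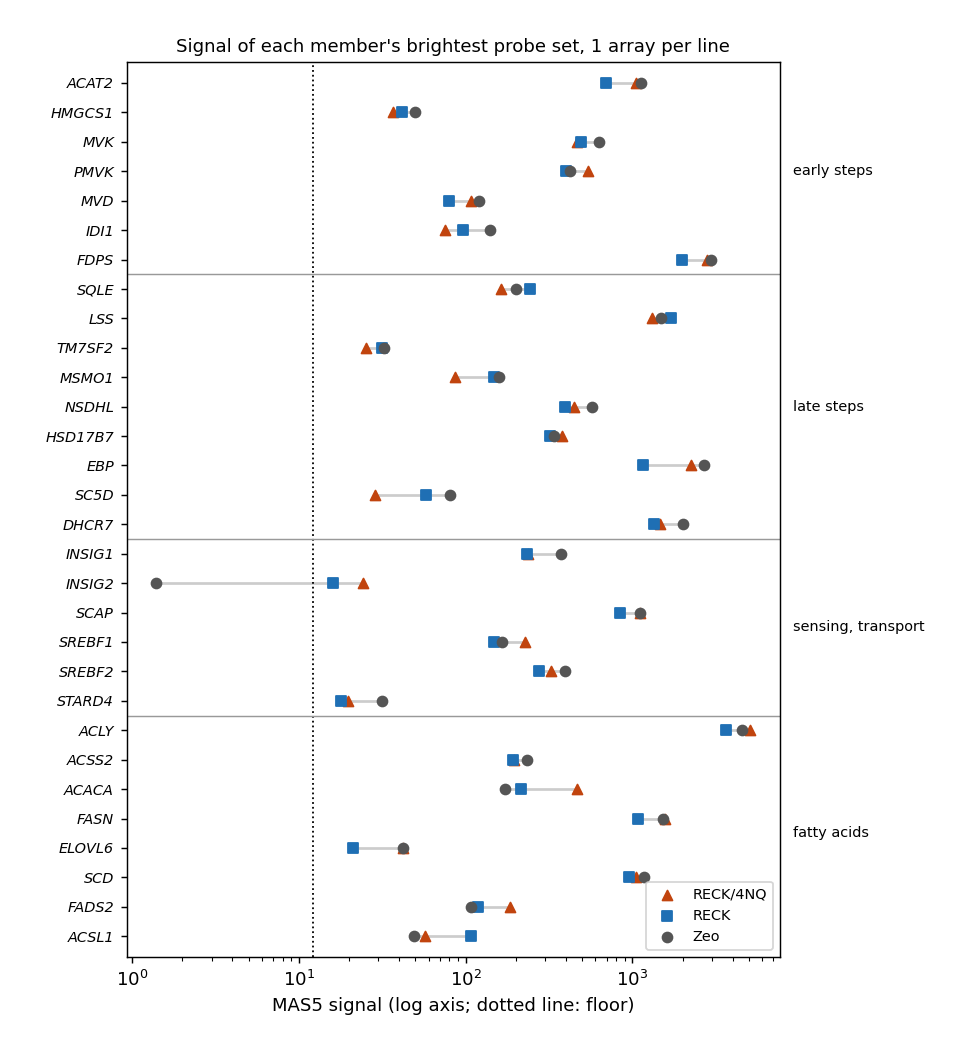
Signal of the brightest probe set of each of the 30 members (log axis), with RECK/4NQ as triangles, RECK as squares and Zeo as circles, 1 array per line, and the floor of 12.25 as a dotted line. Most members lay within a narrow range over the 3 arrays, and EBP, SC5D, ACACA, ACSL1, ELOVL6 and INSIG2 had the widest spans.

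Of the 30 members, 1 (ACACA) was at least 2-fold higher and 1 (SC5D) at least 2-fold lower in RECK/4NQ than in Zeo, or 3.33% each way, where 2.81% of all genes were higher and 7.13% lower. In RECK over Zeo, ACSL1 was the 1 member at least 2-fold higher and EBP the 1 lower, against 4.03% and 6.70% of all genes. For RECK/4NQ over RECK these were ACACA and SC5D, against 4.47% and 5.76%. These shares of members were near or below the background, so the counts do not set the members apart from other genes at this threshold. After division by array medians or quantile normalisation, RECK/4NQ over RECK had 2 members higher (ACACA and ELOVL6) and 0 lower. Of all genes, 5.22% were then higher and 5.72% lower by the first scaling, and 4.6% and 6.03% by the second.

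At 1.5-fold, 3 members were higher and 5 lower (16.7%) in RECK/4NQ than in Zeo, against 7.89% and 17.7% of all genes, which is again near the background. RECK over Zeo had 1 member and 8 lower (26.7%), against 9.37% and 18.4%. Among genes whose mean signal reached the 80th percentile of the signals, where ratios are steadier, 6 of 23 members (26.1%) were lower in RECK than in Zeo, against 15.1% of 6432 such genes, and 3 of 23 (13.04%) lower in RECK/4NQ, against 9.03%. For RECK/4NQ over RECK 7 members were higher (23.3%) and 3 lower, against 13.3% and 13.6%. After the arrays were divided by their medians, 5 members were higher and 3 lower in RECK/4NQ than in Zeo. Of all genes, 13.4% were then higher and 11.5% lower. In RECK over Zeo 1 member was higher and 3 lower, against 12.9% and 12.1% of all genes. After quantile normalisation 3 were higher and 3 lower in RECK/4NQ than in Zeo, against 10.9% and 12.9%. In RECK over Zeo these counts were 1 and 3, against 12.6% and 12.7%. Between RECK/4NQ and RECK, quantile normalisation gave 4 higher and 4 lower, against 12.4% and 14.5% of all genes, and division by array medians left 7 and 3, against 15.2% and 13.1%. The excess of higher members in RECK/4NQ over RECK was thus not seen after quantile normalisation, and that of lower members in RECK over Zeo was not seen after either scaling, with 12.1% and 12.7% of all genes lower.

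The 16 sterol synthesis members, from ACAT2 to DHCR7, had a median log2 ratio of -0.32 in RECK/4NQ over Zeo, which is -0.20 relative to all genes, and 12 of 16 lay below the median of all genes. In RECK over Zeo the median was -0.42, or -0.22 relative to all genes, with 10 of 16 below. Both comparisons share the Zeo array. Between RECK/4NQ and RECK the median was 0.02, or -0.04 relative to all genes, with 8 members on either side. The 8 fatty acid members had medians of 0.10 against Zeo in RECK/4NQ, -0.29 against Zeo in RECK and 0.51 between RECK/4NQ and RECK, which are 0.22, -0.10 and 0.44 relative to all genes. With all probe sets of a gene averaged, the first of these relative medians was -0.028 and the last 0.16.

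**Figure D2:**
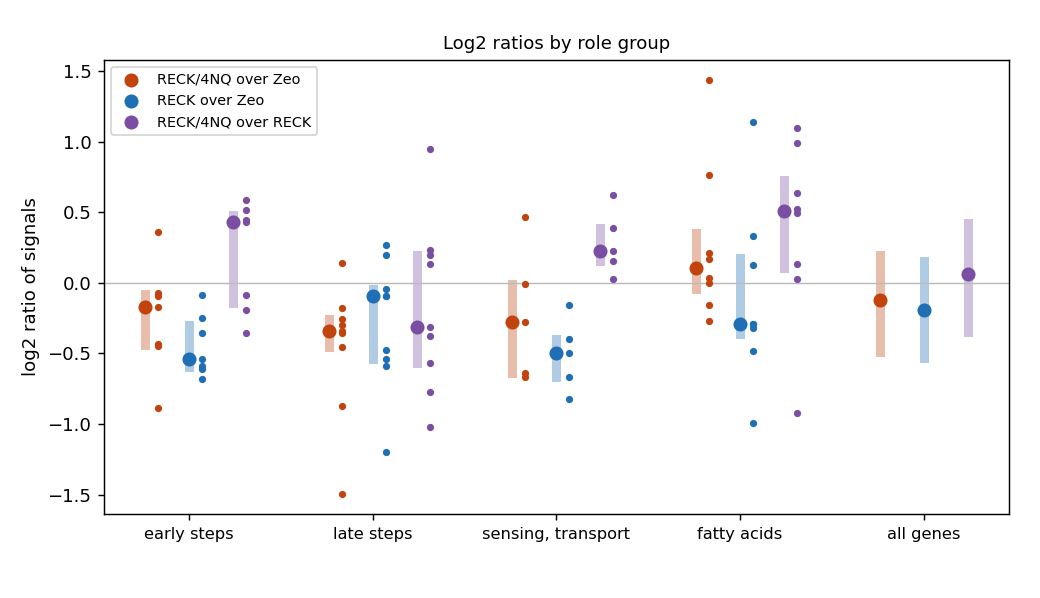
Log2 ratios of signals by role group (early steps from ACAT2 to FDPS, late steps from SQLE to DHCR7, sensing and transport, fatty acids) and for all genes, for the 3 comparisons. Large points are medians, shaded bars run from the 25th to the 75th percentile and small points are single members whose mean level reached the floor; in RECK/4NQ over RECK the medians of the early steps and the fatty acid genes lay above that of all genes and the median of the late steps below it, with single members on both sides in each group.

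The enzymes that take acetyl-CoA to farnesyl diphosphate had a median log2 ratio of -0.54 in RECK over Zeo, and 6 of 7 lay below the median of all genes of -0.19. None of the 7 was past 2-fold, against 6.70% of all genes lower and 4.03% higher. At 1.5-fold 3 were lower (42.9%), against 18.4% of all genes. ACAT2, the cytosolic thiolase that joins acetyl-CoA units, had a signal of 1050 in RECK/4NQ, 697 in RECK and 1118 in Zeo. FDPS, farnesyl diphosphate synthase, had 2815, 1969 and 2958 on the same arrays in that order, and MVD, which decarboxylates mevalonate diphosphate, had 107, 79.2 and 121. In these 3 genes RECK stood below both other lines, at 1.60-fold (ACAT2), just past 1.5-fold (FDPS) and 1.52-fold (MVD) lower than Zeo, while RECK/4NQ was within 1.13-fold of Zeo. These ratios of RECK to Zeo lay 1.38, 1.35 and 0.87 spreads below the median of all genes. None of the 3 was 1.5-fold lower in RECK than in Zeo after either scaling, and each has 1 probe set.

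IDI1, which isomerises isopentenyl diphosphate, was lowest in RECK/4NQ instead, with a signal of 75.03 in RECK/4NQ, 95.8 in RECK and 139 in Zeo. It was 1.85-fold lower in RECK/4NQ than in Zeo, 1.67 spreads below the median of all genes, and 1.45-fold lower in RECK. Its 3 other probe sets were also lower in RECK/4NQ than in Zeo, at 58.9 against 115, 58.2 against 84.2 and 12.5 against 26.3. For RECK over Zeo they were split, since the first of these had 81.2 in RECK, the second 127 and the 3rd 16.7. The names of the brightest, first and second mark them as ones that may bind more than 1 transcript. The 3rd was near the floor in RECK/4NQ. The remaining members of this stretch did not reach 1.5-fold by their brightest probe sets. MVK, mevalonate kinase, had 464 in RECK/4NQ, 493 in RECK and 632 in Zeo, and HMGCS1, which makes HMG-CoA, had 36.6, 41.7 and 49.4 on those arrays in the same order. The second HMGCS1 probe set had 23.9 in RECK/4NQ, 25.6 in RECK and 49.4 in Zeo, 2.06-fold and 1.93-fold lower than Zeo. PMVK, the kinase after MVK, had 543 in RECK/4NQ, 399 in RECK and 424 in Zeo. A second MVK probe set had 89.3, 195 and 177 on the 3 arrays, 1.98-fold lower in RECK/4NQ than in Zeo, and a 3rd 130, 110 and 200.

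The late steps, from squalene to cholesterol, were measured by 9 genes, and 8 of them lay below the median of all genes in RECK/4NQ over Zeo. Their median log2 ratio was -0.34, against -0.12 for all genes. For RECK over Zeo it was -0.09, above the -0.19 of all genes, with 4 members below. SC5D, the sterol desaturase that acts near the end of the pathway, had the lowest ratio, with a signal of 28.6 in RECK/4NQ, 57.9 in RECK and 80.4 in Zeo. RECK/4NQ was 2.82-fold lower than Zeo and 2.03-fold lower than RECK, 2.29 and 1.80 spreads below the medians of all genes. After either scaling RECK/4NQ fell just short of 2-fold lower than RECK, at log2 ratios of -0.978 (array medians) and -0.995 (quantile normalisation). The name of this probe set marks it as 1 that may bind more than 1 transcript, and its 1 other probe set read 13.8 in RECK/4NQ, 6.97 in RECK and 5.69 in Zeo, below the floor on the last 2 arrays, and so gave no decrease.

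MSMO1, which removes methyl groups from lanosterol, had 86.6 in RECK/4NQ, 148 in RECK and 158 in Zeo. Here RECK/4NQ stood alone, 1.83-fold lower than Zeo and 1.71-fold lower than RECK, while RECK and Zeo were within 1.07-fold. SQLE, squalene epoxidase, had 164 in RECK/4NQ, 242 in RECK and 201 in Zeo, and LSS, which closes the sterol rings, had 1318, 1710 and 1491. By these probe sets both were lowest in RECK/4NQ and highest in RECK, without reaching 1.5-fold in any comparison as deposited, while SQLE was called lower in RECK/4NQ than in RECK after quantile normalisation. Their second probe sets passed 1.5-fold between RECK/4NQ and RECK, with 26.05, 46.9 and 26.09 for SQLE and 74.7, 131 and 96.7 for LSS in the same order of arrays. TM7SF2, a sterol reductase, had 25.3 in RECK/4NQ, 31.4 in RECK and 32.4 in Zeo.

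EBP, the sterol isomerase that moves a double bond in the ring system, was the member of the late steps that stood apart in RECK. Its signal was 2239 in RECK/4NQ, 1163 in RECK and 2671 in Zeo. RECK was 2.30-fold lower than Zeo, 3.12 spreads below the median of all genes, while RECK/4NQ was 1.19-fold lower than Zeo. The next probe sets in brightness had 1104, 630 and 1199 and, dimmer still, 332, 223 and 343 on the arrays in the same order. RECK was lowest in all 3 of these, by 1.903-fold and 1.54-fold against Zeo in the dimmer ones. The dimmest, with 62.6, 54.6 and 44.1, was lowest in Zeo. RECK/4NQ over RECK was 1.93-fold higher by the brightest probe set, 2.50 spreads above the median of all genes.

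DHCR7, the reductase of the last step to cholesterol, had a signal of 1471 in RECK/4NQ, 1341 in RECK and 2019 in Zeo, which is 1.37-fold and 1.51-fold lower than Zeo. Its second probe set read 919, 1081 and 1115. NSDHL, a dehydrogenase of the same methyl group removal that MSMO1 starts, had 449 in RECK/4NQ, 392 in RECK and 569 in Zeo, and its second probe set 262, 277 and 371. Both NSDHL probe sets were highest in Zeo, below 1.5-fold. HSD17B7, a reductase that completes that removal, had 376 in RECK/4NQ, 320 in RECK and 340 in Zeo.

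**Figure D3:**
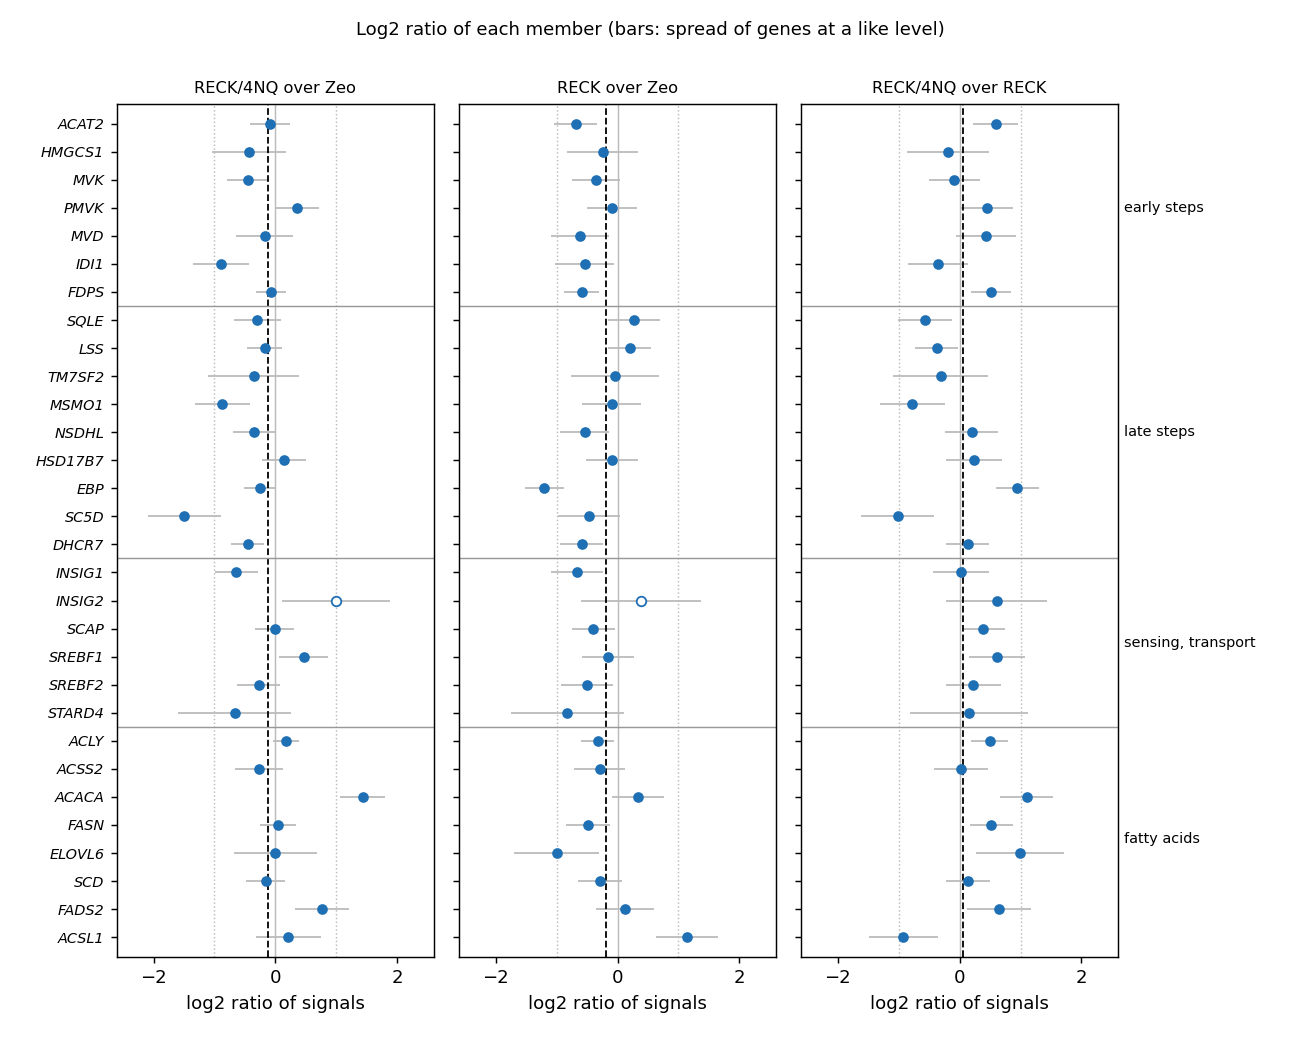
Log2 ratio of each member's brightest probe set in the 3 comparisons, with bars of 1 spread of genes at a like level, the median of all genes as a dashed line and 2-fold as dotted lines. Open circles mark ratios to a signal set at the floor (INSIG2), and ACACA, SC5D, EBP and ACSL1 are the members past 2-fold.

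Of the genes that sense sterols and steer SREBPs, INSIG1 was lower in both RECK/4NQ and RECK than in Zeo. The factor was about the same by its brightest probe set alone. INSIG1 anchors SCAP in the endoplasmic reticulum and is itself a classic SREBP target. Its signal was 238 in RECK/4NQ, 234 in RECK and 370 in Zeo, or 1.56-fold and 1.58-fold lower than Zeo, 1.44 and 1.10 spreads below the medians of all genes. Its second probe set had 150 in RECK/4NQ, 175 in RECK and 239 in Zeo, and its 3rd 70.7, 138 and 181. Zeo was the highest of the 3 lines in every INSIG1 probe set. The last probe set is the 1 whose name does not mark it as matching more than 1 transcript. It put RECK/4NQ 2.56-fold and RECK 1.31-fold lower than Zeo. After division by array medians or quantile normalisation INSIG1 was below 1.5-fold by its brightest probe set.

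STARD4, a soluble carrier that moves sterols between membranes and another SREBP target, had a signal of 19.8 in RECK/4NQ, 17.8 in RECK and 31.5 in Zeo. It was 1.59-fold lower in RECK/4NQ and 1.77-fold lower in RECK than in Zeo, but near the floor these are only 0.59 and 0.67 spreads below the medians of all genes. INSIG2, the relative of INSIG1 that is known not to depend on SREBPs in the same way, was dim. It had 24.4 in RECK/4NQ, 16.01 in RECK and 1.40, below the floor, in Zeo. The RECK/4NQ signal was at least 1.99-fold higher than Zeo and the RECK signal at least 1.31-fold, 1.25 and 0.59 spreads above the medians of all genes. INSIG1 was highest in Zeo and INSIG2 lowest there, the second at a level where ratios are loose.

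SREBF2, the gene of SREBP-2, had 324 in RECK/4NQ, 277 in RECK and 392 in Zeo, a second probe set 177, 155 and 207, and the dimmest 90.7, 58.5 and 76.5. SCAP, the escort protein of SREBPs, had 1102 in RECK/4NQ, 841 in RECK and 1108 in Zeo. By the brightest probe set neither gene reached 1.5-fold in any comparison, and RECK was lowest for both. SREBF1, the gene of SREBP-1, had 227 in RECK/4NQ, 148 in RECK and 164 in Zeo. RECK/4NQ was 1.54-fold higher than RECK, 1.21 spreads above the median of all genes, and 1.38-fold higher than Zeo. The other SREBF1 probe set read 22.3 in RECK/4NQ, 6.35 in RECK and 11.8 in Zeo, below the floor on the last 2 arrays.

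Among the fatty acid genes, ACACA had the highest ratio above Zeo, by RECK/4NQ over Zeo. With signals raised to the floor it was also the highest of any member, but the ratio of INSIG2 is then only a lower limit. ACACA encodes acetyl-CoA carboxylase 1, which makes the malonyl-CoA used to build fatty acids. Its signal was 463 in RECK/4NQ, 216 in RECK and 171 in Zeo. RECK/4NQ was 2.70-fold higher than Zeo, 4.22 spreads above the median of all genes, and 2.14-fold higher than RECK, 2.37 spreads above. The second ACACA probe set had 184 in RECK/4NQ, 153 in RECK and 158 in Zeo, 1.16-fold higher than Zeo, so the probe sets share a direction and not a size.

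ACLY, which splits citrate to supply cytosolic acetyl-CoA, had a signal of 5084 in RECK/4NQ, 3611 in RECK and 4518 in Zeo. FASN, fatty acid synthase, had 1557, 1085 and 1517. Both were highest in RECK/4NQ and lowest in RECK, by 1.41-fold and 1.43-fold between those lines, and neither reached 1.5-fold. The order of the 3 arrays was the same in the other ACLY probe sets, at 1087, 799 and 928 and at 632, 517 and 528, while the second, dim FASN probe set read 13.3, 21.1 and 24.1. ACSS2, which makes acetyl-CoA from acetate, had 194 in RECK/4NQ, 191 in RECK and 234 in Zeo.

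FADS2, the first desaturase in the making of polyunsaturated fatty acids, had 184 in RECK/4NQ, 118 in RECK and 108 in Zeo. It was 1.70-fold higher in RECK/4NQ than in Zeo, 2.01 spreads above the median of all genes, and 1.56-fold higher than in RECK. The name of this probe set marks it as 1 that may bind more than 1 transcript, and the other FADS2 probe set was below the floor on every array. After quantile normalisation FADS2 was below 1.5-fold between RECK/4NQ and RECK, at a log2 ratio of 0.57. SCD, which desaturates stearoyl-CoA, had 1051 in RECK/4NQ, 957 in RECK and 1173 in Zeo, and its other 3 probe sets also stayed within 1.5-fold except 1 at 295, 217 and 370, where RECK was 1.71-fold lower than Zeo.

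ELOVL6, which lengthens palmitate, had a signal of 42.0 in RECK/4NQ, 21.1 in RECK and 42.0 in Zeo. RECK was 1.99-fold lower than Zeo by this probe set, but the other probe sets, at 13.4, 28.8 and 20.6 and at 18.6, 25.1 and 13.4, were highest in RECK. Averaged over the 3 probe sets the log2 ratio of RECK over Zeo was 0.13, so ELOVL6 gave no settled direction. ACSL1, which activates long-chain fatty acids by joining them to CoA, had 56.9 in RECK/4NQ, 108 in RECK and 49.0 in Zeo. RECK was 2.20-fold higher than Zeo, 2.62 spreads above the median of all genes, and RECK/4NQ was 1.896-fold lower than RECK. The second ACSL1 probe set, at 16.04 in RECK/4NQ, 31.3 in RECK and 24.5 in Zeo, was also highest in RECK, 1.28-fold above Zeo.

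**Figure D4:**
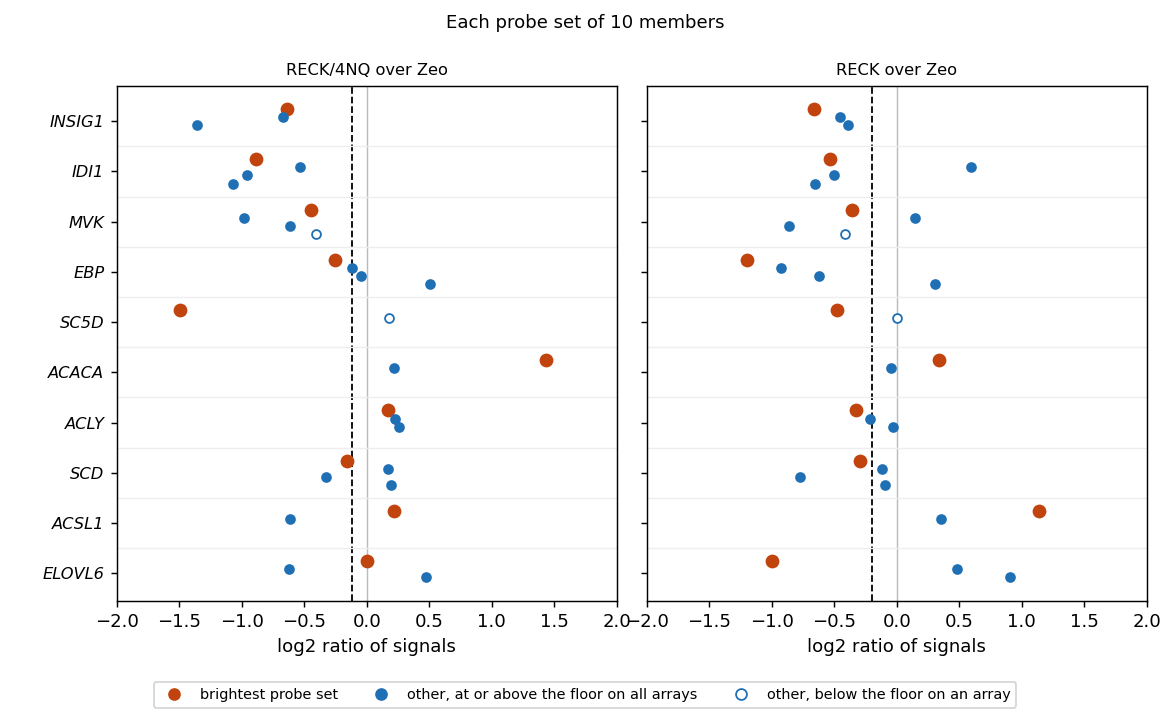
Log2 ratio of every probe set of 10 members with several probe sets, for RECK/4NQ over Zeo (left) and RECK over Zeo (right), with the brightest in red, others above the floor throughout in filled blue and others in open blue; the dashed line is the median of all genes. The INSIG1 probe sets lay below that line in both panels and 3 of 4 EBP probe sets lay far below it in RECK over Zeo, while those of ELOVL6 and SC5D disagreed.

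Other probe sets gave an imperfect check of the brightest. Counting those that reached the floor on each array, 17 of 28 lay on the same side of the median of all genes as the brightest in RECK/4NQ over Zeo, 18 of 28 in RECK over Zeo and 22 of 28 in RECK/4NQ over RECK. For members called at 1.5-fold these counts were 6 of 6, 5 of 9 and 5 of 7.

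The 29 members that reached the floor on each array were ranked by array. RECK was the lowest of the 3 for 18 (62.1%), against 46.9% of 12406 such genes, RECK/4NQ for 8 (27.6%), against 33.9%, and Zeo for 3 (10.3%), against 19.2%. Zeo was the highest for 19 members (65.5%), against 45.2% of genes. These ranks are of signals as deposited, and the RECK array had the lowest total signal.

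Genes next to these pathways were taken from lists that hold none of the members. The isoprenoid branch genes, which use farnesyl diphosphate and its precursors for dolichol, coenzyme Q and protein prenylation, had 1 of 9 members at least 2-fold lower in RECK/4NQ than in Zeo, 0 higher and 8 not past 2-fold, against 7.13% of all genes lower and 2.81% higher, with a median log2 ratio of -0.46 against -0.12 for all genes. PGGT1B, a subunit of the enzyme that attaches geranylgeranyl groups to proteins, had 18.6 in RECK/4NQ, 48.9 in RECK and 49.4 in Zeo, and a second, dimmer probe set had 1.39, 13.6 and 23.3. The dimmest of its probe sets, at 2.75, 22.6 and 3.64, was above the floor in RECK alone. In RECK over Zeo none of the 9 passed 2-fold, against 6.70% of all genes lower and 4.03% higher. The median was -0.17 there, against -0.19 for all genes.

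Of 7 other genes known as SREBP targets, MID1IP1, a protein that helps acetyl-CoA carboxylase assemble, was the 1 past 2-fold, with 15.3 in RECK/4NQ, 4.20 in RECK (below the floor) and 29.3 in Zeo. It was at least 2.39-fold lower in RECK than in Zeo and 1.92-fold lower in RECK/4NQ. At 2-fold, 6.70% of all genes were lower and 4.03% higher in RECK over Zeo. This list of SREBP targets had medians of -0.13 (RECK/4NQ over Zeo) and -0.23 (RECK over Zeo), close to the -0.12 and -0.19 of all genes. In RECK/4NQ over RECK its median was 0.23 against 0.06, and all 7 genes lay above the median of all genes, none past 1.5-fold. Of 11 measured genes of other acyl-CoA ligases, elongases and desaturases none passed 2-fold against Zeo in either line. Of all genes, 7.13% were lower and 2.81% higher in RECK/4NQ, and 6.70% and 4.03% in RECK. FADS3 was the 1 past 2-fold between RECK/4NQ and RECK, at 613 in RECK/4NQ, 1239 in RECK and 841 in Zeo. In that comparison 5.76% of all genes were lower and 4.47% higher. The 3 measured genes for SREBP proteases and sterol-regulated degradation, MBTPS1, MBTPS2 and RNF139, did not reach 1.5-fold in any comparison. By comparison, 7.89% to 13.3% of all genes were higher and 13.6% to 18.4% lower at that threshold.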

How the data were processed

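Total RNA of 3 HT1080 lines was measured on 1 array each. The authors deposited an intensity per probe set, the linear MAS5 signal, per the submitters' processing notes. Neither its version nor its scaling target is known here. MAS5 subtracts an estimate from mismatch probes, so dim signals are noisy. Samples were grouped by their titles. From 54675 probe sets, 62 controls were left out, and 41091 had 1 gene symbol, 1801 several and 11721 no listed gene. Genes were named from the first kind alone, of which 41037 matched a RefSeq gene, with 0 symbols updated. The brightest probe set, by mean log2 signal, stood for each of 19775 genes. Signals were floored at 12.25 (40th percentile). Log2 ratios, counts past 1.5-fold and 2-fold, medians and robust spreads (1.4826 times the median absolute deviation) were computed with Python 3.11.15, numpy 2.4.6 and pandas 2.3.3. The 2-fold call was checked on simulated data, with changes larger than 2-fold placed in bright genes alone. Changes near 1.5-fold or in dim genes were not simulated. With 1 array per line no test was possible. The number of arrays limits the precision. Alternatives were 2 scalings, averaged probe sets, no shared probe sets, the floor at the 60th percentile, no floor, and bright genes as background. Values were planned for members past 1.5-fold in any comparison and for the regulators, and were given for all 30 measured members. Of each further list, at most 3 genes past 2-fold were named with values, except NPC1, added later. The members and lists were chosen with earlier results of these data known.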

Additional observations from a re-analysis of the deposited data

How the results depend on the processing

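No paired analysis was possible because each line has 1 array. Of 99 recomputed counts and group medians, 81 stayed within 1.5 times the count or 0.1 log2 of the median reported, 16 moved and 2 turned sign. The floor at the 60th percentile, no floor and a background of bright genes moved none of these. Dividing arrays by their medians moved the median log2 ratio of all genes for RECK/4NQ over Zeo to 0.10, against -0.12 as deposited. It left 4 members past 1.5-fold in RECK over Zeo, as did quantile normalisation (9 as deposited). Quantile normalisation also gave a relative median of 0.34 for fatty acid members in RECK/4NQ over RECK.

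With probe sets averaged, 0 members passed 2-fold in each of the 3 comparisons. The relative medians in RECK/4NQ over Zeo were then -0.17 for all members, -0.31 for sterol synthesis members and -0.028 for fatty acid members, the last turned in sign, and 0.16 for fatty acid members in RECK/4NQ over RECK. Without shared probe sets, which leaves 20 members, 1 member passed 2-fold in RECK over Zeo and 1 in RECK/4NQ over RECK. Medians in this setting rest on the members whose mean level reached the floor, 17 in all, with 9 for sterol synthesis and 3 for fatty acids. The relative medians were then -0.30 for sterol synthesis and 0.35 for fatty acid members in RECK/4NQ over Zeo, and 0.53 for fatty acid members in RECK over Zeo. In RECK/4NQ over RECK they were -0.24 for sterol synthesis members, 0.95 for fatty acid members and -0.13 for all members, the last turned in sign. Of 207 gene ratios, 4 that were past 1.5-fold turned sign: ELOVL6 with probe sets averaged, at 0.13 in RECK over Zeo and -0.18 in RECK/4NQ over RECK, and SC5D without shared probe sets, at 0.17 in both RECK/4NQ over Zeo and RECK/4NQ over RECK. Another 8 moved by at least 1 spread. With probe sets averaged these were ACACA (0.83), SC5D (-0.66) and EBP (0.02) in RECK/4NQ over Zeo, and EBP (-0.61) in RECK over Zeo. Without shared probe sets they were INSIG1 (-1.36 and -0.97) and FADS2 (0 in both) in RECK/4NQ over Zeo and over RECK. Where probe sets or genes were dropped, fewer measurements enter; otherwise the cause was not tested. With 1 array per line, no spread between replicates is known.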

Other observations

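Genes that take up, store and export sterols were measured by 10 of 11 listed members. In RECK/4NQ over Zeo 2 were at least 2-fold lower, 0 higher and 8 not past 2-fold, against 7.13% of all genes lower and 2.81% higher. These were the cholesterol exporters ABCA1, at 17.4 in RECK/4NQ, 32.4 in RECK and 41.8 in Zeo, and ABCG1, at 13.2, 39.0 and 28.3. Both genes are known targets of the sterol-sensing receptor LXR, and both were near the floor, where ratios are loose. In RECK over Zeo MYLIP, an LXR target that marks lipoprotein receptors for degradation, was the 1 gene of 10 past 2-fold. It was lower, where 6.70% of all genes were lower and 4.03% higher. Its brightest probe set had 66.7 in RECK/4NQ, 19.4 in RECK and 66.8 in Zeo, while the next 2 in brightness read 51.7, 39.0 and 38.4 and 42.5, 31.5 and 45.1, with far smaller differences.

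NPC1, which moves cholesterol out of lysosomes and was singled out after its values were seen, had a signal of 2685 in RECK/4NQ, 1278 in RECK and 2300 in Zeo. RECK was 1.80-fold lower than Zeo and RECK/4NQ 2.10-fold higher than RECK. Dimmer NPC1 probe sets had 56.5, 27.8 and 52.0 and 26.3, 6.94 and 26.2 on the same arrays, also lowest in RECK, while the dimmest read 1.04, 13.3 and 8.43. As for EBP, the RECK array was lowest, while the highest was RECK/4NQ for NPC1 and Zeo for EBP. The fatty acid oxidation list had none of 9 genes past 2-fold in any comparison. Of all genes, 7.13% were lower and 2.81% higher in RECK/4NQ over Zeo, and 6.70% and 4.03% in RECK over Zeo. For RECK/4NQ over RECK these shares were 5.76% and 4.47%. The list had median log2 ratios of 0.01 for RECK/4NQ over Zeo, -0.04 for RECK over Zeo and 0.17 for RECK/4NQ over RECK. Those of all genes were -0.12, -0.19 and 0.06.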
